A study of Mus musculus with 7 samples.

Results

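The genes examined were those of the proteasome, the protease that degrades ubiquitin-tagged proteins, in C2C12 myotubes with and without electrical pulse stimulation (EPS). They were chosen by symbol: every gene of the Psma to Psmg families with a mean CPM, the read count scaled to the library total, of at least 1 over the 7 libraries. Of 26607 listed genes, 49 symbols matched the rule and 45 reached that mean. C2C12 is an established clonal line of mouse myoblasts, which fuse into multinucleated myotubes when serum is lowered. The control group (n = 3 libraries, numbered 1, 3 and 4) was unstimulated myotubes, and the EPS group (n = 4 libraries, numbered 1 to 4) was myotubes paced with electrical pulses for a day, which makes them contract. Both groups came from the same differentiated culture system, with no genetic change. The model is 1 cell line, and the labels do not say whether libraries came from separate cultures, so the p-values measure the spread between these libraries, which may be technical.

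The proteasome is a barrel closed at one or both ends by a cap. In the barrel, or core particle, outer rings of alpha subunits form a gate and inner rings of beta subunits carry the proteolytic sites. The most common cap, the regulatory particle, has a base of ATPases and scaffold proteins that unfold the substrate and a lid that removes the ubiquitin chain. In skeletal muscle this system is known for the breakdown of myofibrillar proteins, and inducible beta subunits replace the constitutive ones in cells exposed to inflammatory signals.

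Library totals ranged from 16616917 to 22120641 reads, and 3 reads corresponded to 0.136 to 0.181 CPM. The least abundant of the 45 genes still had at least 50 reads in every library. These limits cover counting error only. Control 4 stood apart: 14014 genes were above 0 there and 16144 to 16984 elsewhere, and it had 359 genes with 1 to 5 reads where the others had 2670 to 3181. Of 9 measured myotube markers, 8 had a lower mean with EPS and 2 passed an unadjusted P under 0.01 in limma, Myh4 and Actn2. The summed level of these markers was 9482 to 13270 CPM in control and 6568 to 9592 CPM in EPS. Myh1, Myh3 and Acta1 stood at 777.5 CPM or more in every library, while Myh4 was at 37.7 CPM in EPS 2. Of 8 myoblast and proliferation markers, 7 had a higher mean with EPS. In limma, 5 were higher at an unadjusted P under 0.05, against 9.12% of the genes with a mean of at least 1 CPM. These 5 were the proliferation genes Mki67, Top2a, Ccnb1, Cdk1 and Ccna2. The myoblast genes Pax7 and Myf5 had overlapping groups, with means of 20.2 and 6.1 CPM in control and 18.1 and 7.4 CPM in EPS. The 8 markers summed to 275 to 366 CPM in control and 413 to 1141 CPM in EPS. Of 6 leukocyte markers, Emr1 was at 0 reads in all libraries, Ptprc did not exceed 0.0602 CPM, and Cd68, Csf1r, Itgam and Lyz2 had low levels of up to 2.07 CPM. Csf1r was at 0 to 0.181 CPM in control and at 0.228 to 0.690 CPM in EPS, all above control (limma adjusted p of 0.283), and the 6 markers summed to 1.57 to 2.47 CPM in control and 1.86 to 2.97 CPM in EPS. The part of these marker differences in the proteasome values was not tested.

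The median proteasome gene was slightly higher with EPS, the group as a whole was not tested, and no single gene passed correction for multiple testing. In EPS 3 the median over these genes lay between those of the control libraries. The log2 fold change, taken on log2(CPM + 1), was above 0 for 38 of 45 proteasome genes, against 63.6% of the 12256 genes with a mean of at least 1 CPM. The median log2 fold change of the proteasome genes was 0.30, a fold of 1.23, while the median over the genes of at least 1 CPM was 0.10. A correction for transcript length and GC content, described with the library differences, left a median of 0.08 with 27 of 45 genes above 0. With the same correction, 48.8% of the genes of at least 1 CPM were above 0, with a median of -0.0073. In bulk RNA, fewer cells of a type and less RNA per cell cannot be told apart. The values ran from 0.74 for the assembly chaperone Psmg4 to -0.19 for the nuclear activator Psme3.

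In limma, 0 of 45 proteasome genes had a Benjamini-Hochberg adjusted p under 0.05 (background 0.18%), and the lowest adjusted p was 0.233. None passed an unadjusted P under 0.01 together with a change over 2-fold (background 2.15%). At an unadjusted P under 0.01, 2 genes were higher with EPS, Psma5 and Psme4 (background 2.8%), and 0 were lower (background 1.47%). At an unadjusted P under 0.05, 14 were higher (background 9.12%) and 0 were lower (background 3.53%). That count was 6 without control 1 (background 7.92%), 9 without EPS 2 (background 7.9%), and 8 without EPS 4 (background 6.34%). On reads recovered from the CPM, the edgeR quasi-likelihood test gave 0 genes at an adjusted p under 0.05 (background 2.28%) and 7 higher at an unadjusted P under 0.05 (background 6.65%). DESeq2 gave 0 (background 3.85%) and 9 (background 6.76%).

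All 4 EPS libraries lay above all 3 control libraries for 13 of the 45 genes (background 9.18%), and below them for 0 genes (background 3.49%). These 13 were Psma5, Psmb5, Psmb6, Psmb7, Psmb10, Psmc1, Psmc5, Psmd7, Psmd8, Psme1, Psme4, Psmf1 and Psmg4. The count depended on scaling: with trimmed mean of M-values (TMM) scaling it was 7 (background 5.97%), and with median-of-ratios scaling 8 (background 5.76%). Median-of-ratios scaling lowered the median of all genes of at least 1 CPM from 0.10 to -0.0048. Relative to that median the proteasome genes stood 0.20 higher under CPM and 0.21 higher under median-of-ratios scaling, but only 0.10 higher without EPS 4 and 0.14 higher without control 1. With TMM, 35 of 45 log2 fold changes were above 0 (background 51%), and with median-of-ratios scaling 34 were (background 49.3%).

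**Figure D1:**
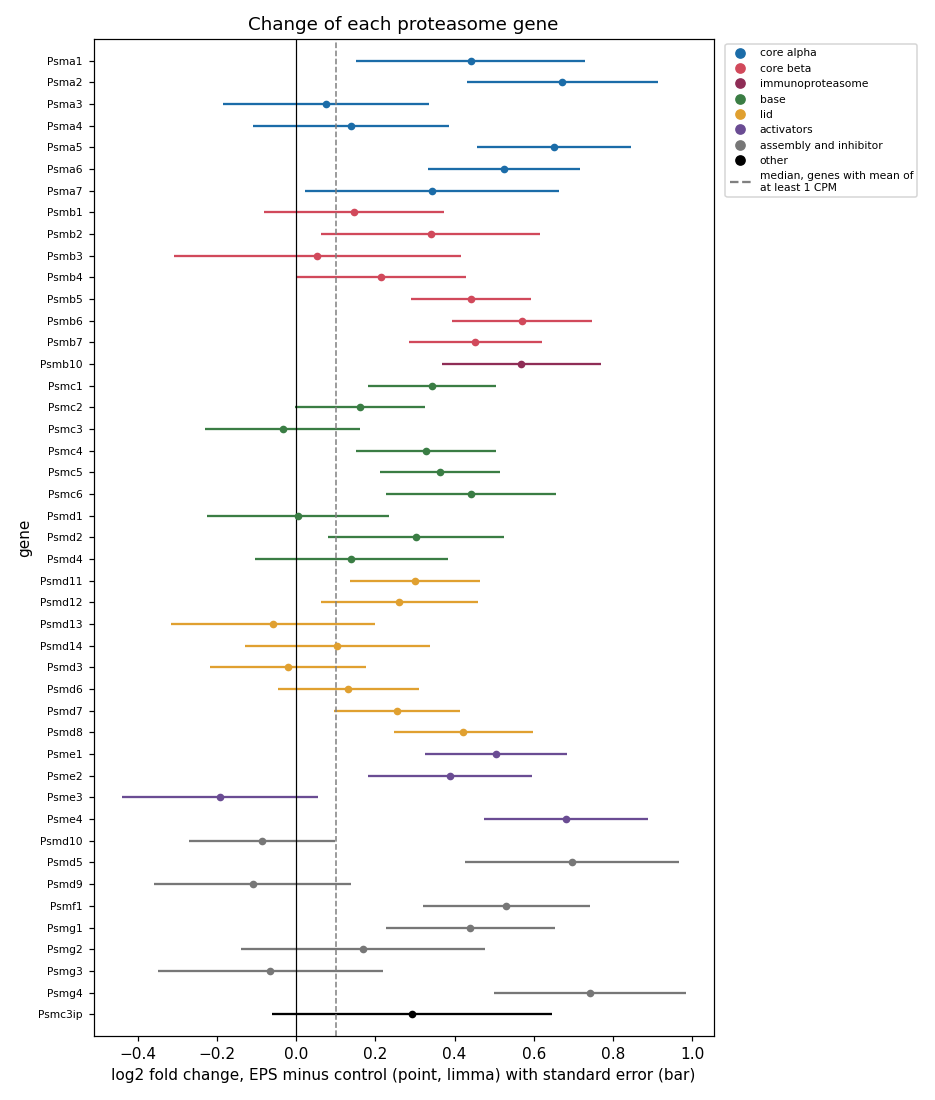
Log2 fold change, EPS minus control, of each of the 45 proteasome genes from limma on log2(CPM + 1), with bars for the standard error and colours for the role group. Of the 45 points, 38 lie right of 0, and the dashed line marks the median of 0.10 over the genes with a mean of at least 1 CPM.

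Promoters are shown for the 2 genes with the lowest p-values, Psma5 and Psme4, and for the catalytic subunits Psmb5 and Psmb6. Each runs from base -120 to base 10 around the RefSeq transcription start (GRCm38.p6), 5′ to 3′ on the gene's strand. Capitals mark TGACNNNGC on either strand, the core letters of the antioxidant response element, an element bound by the Nrf family of transcription factors. The windows are chr3:108256806-108256935 on the plus strand for Psma5, chr11:30771655-30771784 on the plus strand for Psme4, chr14:54617986-54618115 on the minus strand for Psmb5, and chr11:70525237-70525366 on the plus strand for Psmb6.
Psma5: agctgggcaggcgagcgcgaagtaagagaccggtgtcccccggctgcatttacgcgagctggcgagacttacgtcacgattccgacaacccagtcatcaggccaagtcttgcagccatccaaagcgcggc
Psme4: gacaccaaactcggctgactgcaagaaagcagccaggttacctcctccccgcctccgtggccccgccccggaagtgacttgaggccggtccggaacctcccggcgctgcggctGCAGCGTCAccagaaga
Psmb5: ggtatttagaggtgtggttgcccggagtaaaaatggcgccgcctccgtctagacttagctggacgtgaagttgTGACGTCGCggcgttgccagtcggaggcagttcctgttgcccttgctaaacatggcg
Psmb6: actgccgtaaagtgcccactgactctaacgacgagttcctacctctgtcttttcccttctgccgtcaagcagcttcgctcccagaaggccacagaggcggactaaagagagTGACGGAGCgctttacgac

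The RefSeq table held 41 promoters of 38 of the 45 genes, each 300 bases long. TGACNNNGC occurred in 6 of the 41 (14.6%), against 12.4% of all 32851 promoters and 14.5% of those of genes with a mean of at least 1 CPM. The 6 belonged to Psmb5, Psmb6, Psmc6, Psmd9, Psmd12 and Psme4. CCAAT occurred in 31.7% of the proteasome promoters and 37.4% of all, and GGGCGG in 56.1% and 35.7%, the latter against 62.7% of the promoters of genes with a mean of at least 1 CPM. These letter matches describe the windows only.

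Core alpha subunits form the outer rings and the gate of the barrel, and all 7 measured members had a higher mean with EPS. Their median log2 fold change was 0.44, with values from 0.08 for Psma3 to 0.67 for Psma2. At an unadjusted P under 0.05, 3 of the 7 were higher, and 1 had EPS libraries entirely above control. Control levels per kilobase of the annotated transcript used for each gene ran from 36.9 CPM for Psma2 to 172 CPM for Psma7. The Psma2 transcript has 2911 bases, of which 702 are coding, so ranks per kilobase, here and below, may depend on the transcript used. The testis form Psma8 had 0 reads in every library.

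Psma5, at chr3:108256926-108279974 in GENCODE M21, stood at 97.8, 118 and 102 CPM in control 1, 3 and 4 and at 149, 192, 128 and 208 CPM in EPS 1 to 4. The EPS libraries all exceeded the controls, with EPS 3 the closest. Control averaged 106 ± 10.8 CPM (SD, n = 3) and EPS 169 ± 37.2 CPM (SD, n = 4), and the log2 fold change was 0.65 (SE 0.19), with a limma P of 0.00889 and an adjusted p of 0.233. The exact two-sided permutation test gave p = 0.0571 against a smallest possible value of 0.0286.
Psma2 was at 107, 130.5 and 85.0 CPM in control and at 143, 228, 126.5 and 198 CPM in EPS. Its groups overlapped because EPS 3 fell below control 3, and the log2 fold change was 0.67 (SE 0.24), with a limma adjusted p of 0.319. Psma6 was at 104, 132 and 105 CPM in control and at 152, 186, 126.5 and 199 CPM in EPS. Here too EPS 3 was the exception, below control 3 and above the other controls, and the log2 fold change was 0.52 (SE 0.19), with a limma adjusted p of 0.331. The other alpha genes, Psma1, Psma3, Psma4 and Psma7, had log2 fold changes of 0.08 to 0.44, and their groups overlapped.

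Core beta subunits form the inner rings, where Psmb5, Psmb6 and Psmb7 hold the chymotrypsin-like, caspase-like and trypsin-like sites. All 7 measured members had a log2 fold change above 0, with a median of 0.34. For Psmb3 the mean in CPM was nevertheless lower with EPS, at 164 against 174 in control. The 3 catalytic genes were those that passed an unadjusted P under 0.05, and in each of them the EPS libraries lay above control. The noncatalytic Psmb1, Psmb2, Psmb3 and Psmb4 had log2 fold changes of 0.05 to 0.34 and overlapping groups. Without control 4 their values were 0.35, 0.42, 0.52 and 0.45, beside 0.41, 0.63 and 0.56 for Psmb5, Psmb6 and Psmb7. Control levels per kilobase ran from 35.5 CPM for Psmb5 to 228 CPM for Psmb3. The thymus form Psmb11 had at most 2 reads in a library.

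Psmb6 was at 112, 130 and 137 CPM in control and at 197, 204, 143 and 215 CPM in EPS. EPS 3 exceeded the highest control by a few CPM, and the other EPS libraries lay well above. Its log2 fold change was 0.57 (SE 0.18), with a limma P of 0.0108, an adjusted p of 0.243 and an exact permutation p of 0.0571.
Psmb5 was at 33.3, 32.0 and 30.4 CPM in control and at 40.7, 51.9, 39.4 and 43.55 CPM in EPS. The control libraries spanned a narrow range and all EPS libraries lay above it. For Psmb5 the log2 fold change was 0.44 (SE 0.15), with a limma adjusted p of 0.295, and the exact permutation test gave p = 0.0286, the smallest value it can give.
Psmb7 was at 181, 211 and 245 CPM in control and at 313, 295, 248.8 and 303 CPM in EPS. EPS 3 exceeded control 4 narrowly. Psmb7 had a log2 fold change of 0.45 (SE 0.17), with a limma adjusted p of 0.338 and an exact permutation p of 0.0571. Reads of Psmb7 and of the overlapping gene Nek6 may be shared, since the strand setting of the counting is not known.

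Inducible subunits replace the catalytic ones in the immunoproteasome, and only Psmb10, which takes the place of Psmb7, reached a mean of 1 CPM. Psmb10 was at 10.55, 10.05 and 9.40 CPM in control and at 16.8, 15.9, 12.5 and 16.5 CPM in EPS. All EPS libraries lay above control, EPS 3 closest. The SD was 0.576 CPM in control (n = 3) and 1.99 CPM in EPS (n = 4), and the log2 fold change was 0.57 (SE 0.20), with a limma adjusted p of 0.313 and an exact permutation p of 0.0571.
Within a library, Psmb10 reads amounted to 5.84%, 4.765% and 3.83% of Psmb7 reads in control and to 5.38%, 5.39%, 5.01% and 5.43% in EPS. The EPS shares lay above control 3 and 4 and below control 1. The mean log2 ratio differed by 0.16 (EPS minus control), with an exact two-sided permutation p of 0.429, adjusted 0.429 over the 2 ratios tested. Single controls decided this value, which was 0.31 without control 1 (exact permutation p of 0.0667) and 0.0069 without control 4.
Psmb8, the inducible counterpart of Psmb5, was near the limit of 3 reads at 0.0583, 0.361 and 0.136 CPM in control, and was at 0.791, 0.341, 0.320 and 1.009 CPM in EPS. Its reads were 0.175%, 1.13% and 0.446% of those of Psmb5 in control and 1.94%, 0.657%, 0.812% and 2.32% in EPS. The ranges overlapped, and the log2 ratio differed by 1.48 with an exact permutation p of 0.143, adjusted 0.286. Without control 1, which had 1 read of Psmb8, the difference was 0.81. Adding 1 CPM to both genes gave -0.0105. The added 1 CPM exceeds the Psmb8 level of every library but EPS 4, so that value says little about Psmb8. Psmb9, the counterpart of Psmb6, had 2, 5 and 0 reads in control and 13, 3, 3 and 5 reads in EPS, at 0.117, 0.301 and 0 CPM and at 0.605, 0.146, 0.137 and 0.266 CPM. The groups overlapped at or near the limit of 3 reads, and with 0 reads in control 4 its ratio to Psmb6 was not tested.

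**Figure D2:**
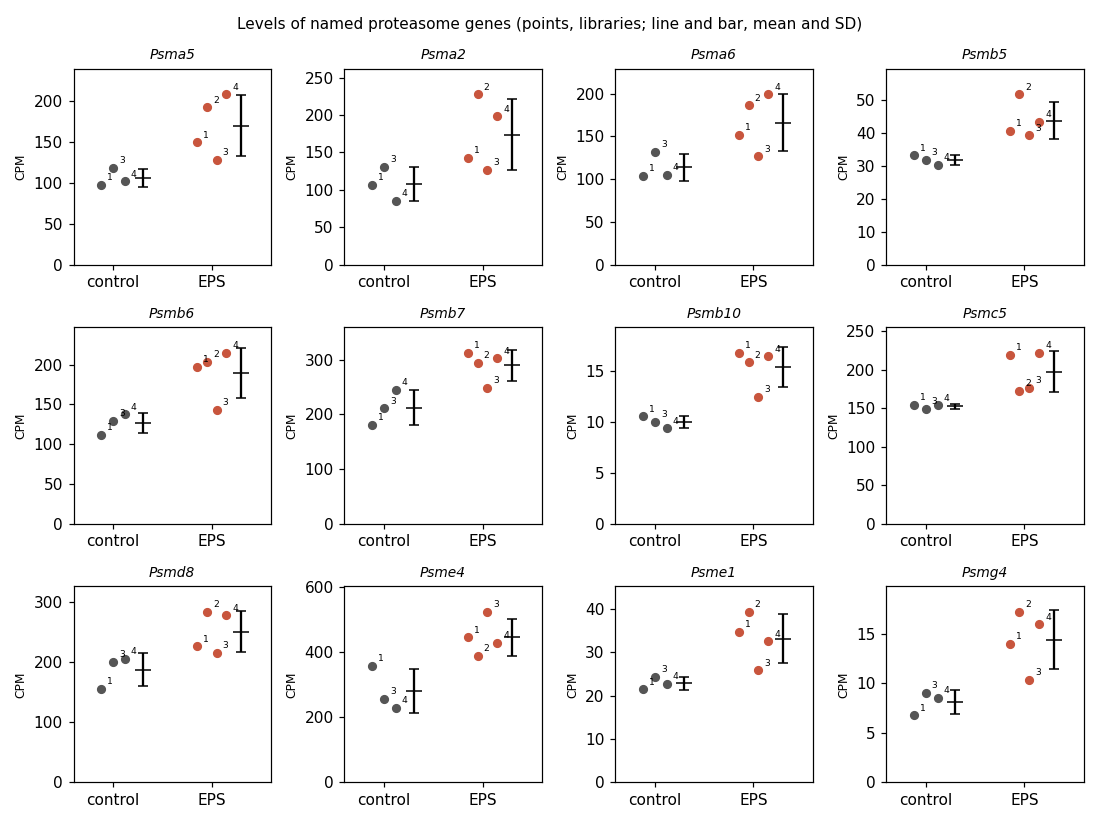
Level in CPM of 12 proteasome genes in each library, with grey points for control 1, 3 and 4, red points for EPS 1 to 4, and black marks for the mean and SD. The panels were picked from the catalytic genes and the genes with a low P. In 10 of the 12 panels all red points lie above all grey points, as they do for 13 of all 45 proteasome genes (background 9.18%). EPS 3 is the lowest EPS point in most panels, at 128 CPM for Psma5 and 12.5 CPM for Psmb10.

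Base genes encode the ATPase ring that unfolds substrates and the scaffold and ubiquitin-receptor subunits around it. Of 9 members, 8 had a higher mean with EPS, with a median log2 fold change of 0.30 and values from -0.03 to 0.44. Psmc5 alone passed an unadjusted P under 0.05, and 2 members, Psmc1 and Psmc5, had EPS libraries above control. Psmc3 was the most abundant proteasome gene per kilobase, at 275 CPM in control.
Psmc5, an ATPase, was at 155, 149 and 154 CPM in control and at 219, 173, 177 and 221.5 CPM in EPS. The controls were nearly level, and EPS fell into a high pair, 1 and 4, and a lower pair, 2 and 3. Psmc5 had a log2 fold change of 0.36 (SE 0.15), with a limma adjusted p of 0.399 and an exact permutation p of 0.0857.
Psmc1, another ATPase of the ring, was at 181, 178 and 163 CPM in control and at 233, 205, 188 and 266 CPM in EPS. EPS 3 was close to control 1. For Psmc1 the log2 fold change was 0.34 (SE 0.16), with a limma adjusted p of 0.460. The ATPase gene Psmc6 was at 107, 139 and 91.5 CPM in control and at 128, 197, 124 and 166 CPM in EPS. Its groups overlapped, with EPS 1 and EPS 3 below control 3, and the log2 fold change was 0.44 (SE 0.22), with a limma adjusted p of 0.475. The scaffold genes Psmd1 and Psmd2 had log2 fold changes of 0.0048 and 0.30, and the ubiquitin receptor Psmd4 of 0.14, which was 0.43 without control 4.

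Lid genes encode the subcomplex that removes ubiquitin from the substrate. Of 8 members, 6 had a higher mean with EPS, with a median log2 fold change of 0.19 and values from -0.06 for Psmd13 to 0.42 for Psmd8. Only Psmd8 passed an unadjusted P under 0.05, and Psmd7 and Psmd8 had EPS libraries above control.
Psmd8 was at 155, 200 and 205 CPM in control and at 226, 283, 215 and 277 CPM in EPS. EPS 3 lay just above control 4. Psmd8 had a log2 fold change of 0.42 (SE 0.18), with a limma adjusted p of 0.400 and an exact permutation p of 0.0571. The deubiquitinase itself, Psmd14, had a log2 fold change of 0.10 with overlapping groups, and of 0.014 without control 4.
Psmd7, the partner of Psmd14, was at 162, 155 and 148 CPM in control and at 171, 185, 162 and 229 CPM in EPS. EPS 3 exceeded control 1 by a margin lost in rounding, and EPS 4 was the highest. Its log2 fold change was 0.26 (SE 0.16), with a limma adjusted p of 0.589, and it was 0.15 without EPS 4 and 0.15 with TMM scaling. Psmd11 was at 153, 130 and 145 CPM in control and at 158, 153, 185 and 215 CPM in EPS, with EPS 2 just under control 1. Its log2 fold change was 0.30 (SE 0.16), with a limma adjusted p of 0.524, and it was 0.19 with median-of-ratios scaling.

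Activators are alternative caps that open the gate without ubiquitin. Of 4 members, 3 had a higher mean with EPS and 2, Psme1 and Psme4, passed an unadjusted P under 0.05 with EPS libraries above control. The 4 genes did not share a pattern across libraries.
Psme4, at chr11:30771726-30880361 in GENCODE M21, encodes the single-chain activator known for acetylated histones. It was at 358, 258 and 229 CPM in control and at 445, 388, 524 and 429 CPM in EPS. Here EPS 3 was the highest library, not the lowest of its group, and control 1 the highest control. Control averaged 282 ± 67.8 CPM (SD, n = 3) and EPS 446 ± 56.8 CPM (SD, n = 4), and the log2 fold change was 0.68 (SE 0.21), with a limma P of 0.00955, an adjusted p of 0.236 and an exact permutation p of 0.0286.
Psme1 and Psme2 encode the mixed ring that is induced along with the immunoproteasome. Psme1 was at 21.4, 24.3 and 22.7 CPM in control and at 34.7, 39.3, 25.9 and 32.5 CPM in EPS. All EPS libraries lay above control, EPS 3 closest, with a log2 fold change of 0.50 (SE 0.18) and a limma adjusted p of 0.317. Psme2 was at 47.2, 57.4 and 73.8 CPM in control and at 84.5, 81.4, 57.7 and 87.8 CPM in EPS. EPS 3 fell inside the control range, and the log2 fold change was 0.39 (SE 0.21), with a limma adjusted p of 0.511, and 0.24 without control 1. Psme2 has a near-identical copy, Psme2b (99.4% identity), so its count is uncertain.
Psme3, the activator of the nucleus, was at 129, 136 and 260 CPM in control and at 134, 157, 129 and 162 CPM in EPS. Control 4 stood far above the other libraries. Its log2 fold change of -0.19 (SE 0.25, limma adjusted p of 0.813) became 0.13 without control 4.

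Assembly chaperones and the inhibitor bind proteasome intermediates or the core and are not part of the finished particle. Of 8 members, 5 had a higher mean with EPS and 3 passed an unadjusted P under 0.05, with log2 fold changes from -0.11 for Psmd9 to 0.74 for Psmg4. Their control levels per kilobase, 6.64 to 35.5 CPM, were lower than those of all core alpha genes.
Psmg4, a chaperone of alpha-ring assembly, was at 6.76, 9.03 and 8.54 CPM in control and at 14.0, 17.2, 10.4 and 15.9 CPM in EPS. All EPS libraries lay above control. The fold was 1.67, with a log2 fold change of 0.74 (SE 0.24), a limma P of 0.0139, an adjusted p of 0.275 and an exact permutation p of 0.0571.
Psmd5, a chaperone of the base, was at 41.9, 71.6 and 83.6 CPM in control and at 86.7, 121, 80.4 and 132 CPM in EPS. EPS 3 fell below control 4, and control 1 was the lowest library. Its log2 fold change was 0.70 (SE 0.27), with a limma adjusted p of 0.364, and it was 0.41 without control 1. Psmf1, known as a proteasome inhibitor, was at 26.8, 31.2 and 17.9 CPM in control and at 32.6, 40.6, 32.6 and 39.2 CPM in EPS. EPS 1 and EPS 3 were near control 3 and control 4 was the lowest library. For Psmf1 the log2 fold change was 0.53 (SE 0.21), with a limma adjusted p of 0.377, and it was 0.31 without control 4. Psmc3ip matches the symbol rule but encodes a meiotic recombination factor. It was at 2.92, 3.13 and 6.19 CPM in control and at 5.73, 3.75, 3.33 and 8.23 CPM in EPS, with overlapping groups, a log2 fold change of 0.29 and a limma adjusted p of 0.804. With 1 library left out, its value ranged from 0.08 without EPS 4 to 0.57 without control 4.

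**Figure D3:**
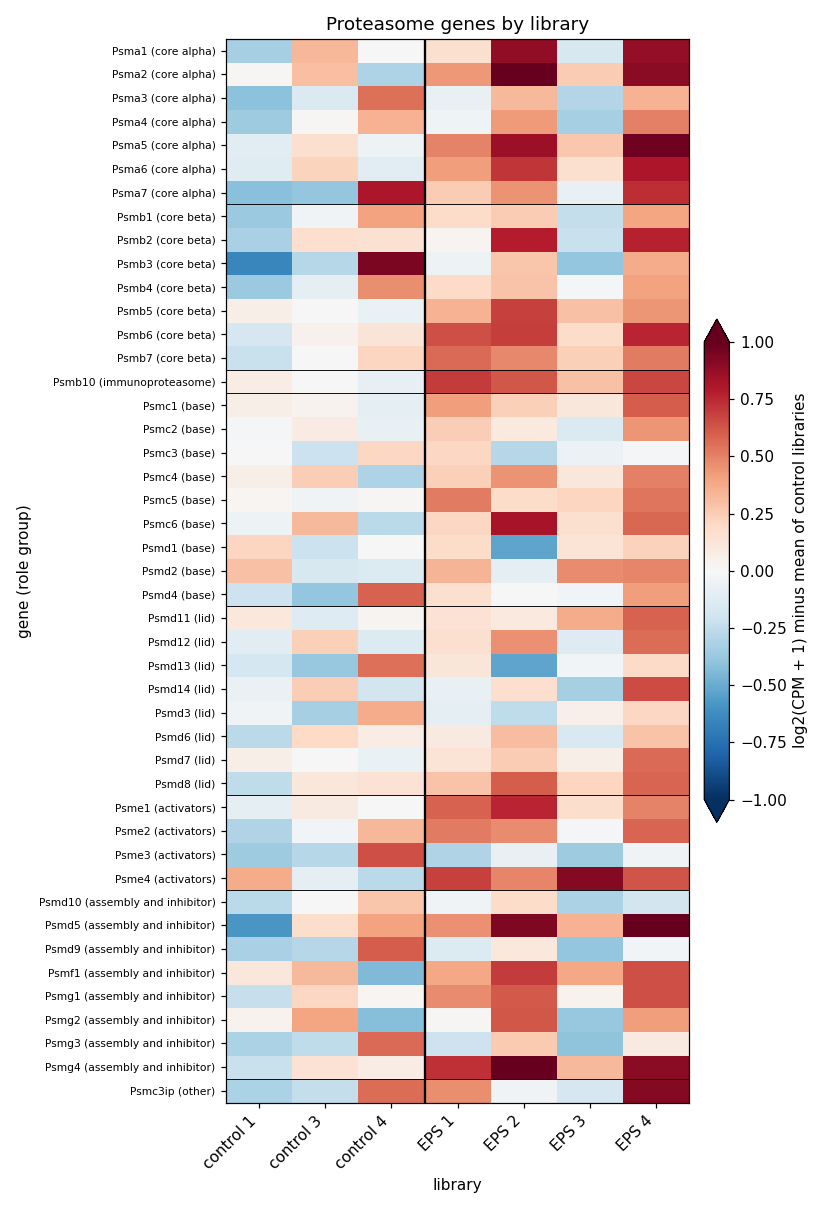
Level of the 45 proteasome genes in each library as log2(CPM + 1) minus the mean of the control libraries, by role group, with red for higher and blue for lower. EPS 2 and EPS 4 are the reddest columns, EPS 3 is near control, and control 4 is red for a subset such as Psmb3 and Psma7.

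The shift was uneven across EPS libraries. The median over the 45 genes, as log2(CPM + 1) minus the control mean, was -0.17, 0.0062 and 0.073 in control 1, 3 and 4 and 0.21, 0.42, 0.031 and 0.54 in EPS 1 to 4. EPS 3 thus lay between the control libraries, and the other EPS libraries lay above them. The number of genes above the control mean was 36, 38, 23 and 41 in EPS 1 to 4. With TMM scaling the medians were -0.15, -0.025 and 0.093 in control and 0.14, 0.23, -0.0065 and 0.44 in EPS. The summed myoblast and proliferation markers were highest in EPS 4, at 1141 CPM, and lowest among EPS libraries in EPS 2, at 413 CPM, which had the next highest median. Without EPS 3 the median log2 fold change was 0.40 and without EPS 4 it was 0.20.

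**Figure D4:**
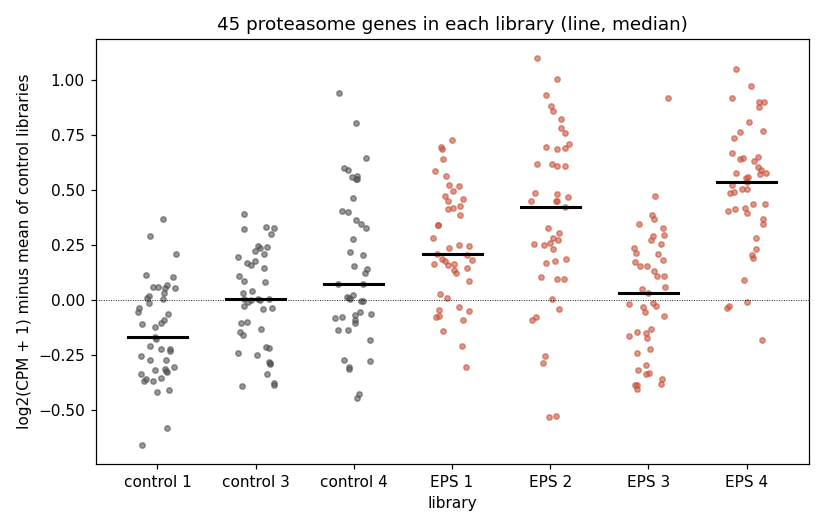
Each point is 1 of the 45 proteasome genes in 1 library, as log2(CPM + 1) minus the mean of the control libraries, with a black line at the library's median. The medians are -0.17 to 0.073 in control and 0.031 to 0.54 in EPS, where EPS 3 overlaps control.

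Libraries also differed by transcript length and GC content. Across the 45 genes, the Spearman correlation of a library's deviation with transcript length was 0.54, 0.06 and -0.08 in control 1, 3 and 4 and -0.11, -0.39, 0.45 and -0.20 in EPS 1 to 4. Over 11016 genes of at least 1 CPM it was 0.52, 0.05 and -0.27 in control and 0.18, -0.40, 0.49 and -0.25 in EPS. With GC content, the correlation across the 45 genes was -0.06, -0.54 and 0.24 in control and 0.31, -0.15, 0.23 and -0.24 in EPS. Over the 11016 genes the GC values were 0.02, -0.36 and 0.36 in control and -0.02, -0.19, 0.09 and -0.08 in EPS. These are descriptions across genes that share a library, and control 1 and EPS 3 had the highest values for length. The log2 fold change itself correlated with length across the 45 genes at a rho of -0.16. The 23 genes with transcripts of up to 1430 bases had a median log2 fold change of 0.36 and the other 22 genes 0.26.
A loess correction of every library for transcript length and GC content, added after the data were seen, lowered the median log2 fold change of the proteasome genes to 0.08, against -0.0073 over the 11016 genes with a mean of at least 1 CPM. With it, 27 of 45 values were above 0 (background 48.8%), EPS libraries lay above control for 10 genes (background 7.56%) and below for 1, the assembly chaperone Psmg3 (background 7.82%). Among the catalytic genes, the log2 fold change moved from 0.57 to 0.34 for Psmb6, from 0.44 to 0.25 for Psmb5 and from 0.45 to 0.20 for Psmb7. It moved from 0.65 to 0.41 for Psma5, from 0.52 to 0.25 for Psma6, from 0.36 to 0.16 for Psmc5, from 0.34 to 0.15 for Psmc1, from 0.30 to 0.17 for Psmd11, from 0.26 to 0.06 for Psmd7, from 0.50 to 0.32 for Psme1, from 0.39 to 0.14 for Psme2, from 0.74 to 0.45 for Psmg4 and from 0.29 to 0.06 for Psmc3ip. For Psma2 and Psme4 the corrected log2 fold change was 0.55 each. It was 0.45 for Psmb10, 0.56 for Psmd5, 0.33 for Psmc6, 0.41 for Psmf1 and 0.28 for Psmd8.

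Control 4 had higher levels of some proteasome genes, which were picked out after their values were seen. It was the highest of all libraries for 12 of the 45 genes and the lowest for 11, against 19.4% and 31.6% of the genes of at least 1 CPM. EPS 4 was the highest for 18 genes and EPS 2 for 11, against 14.4% and 26.2% of the genes of at least 1 CPM. Control 1 was the lowest for 20 of the 45 genes, against 18.5% of the genes of at least 1 CPM. In control 4, 11 genes were over 1.5-fold above the mean of control 1 and 3, against 16.5% of the genes of at least 1 CPM. Psmb3, a structural beta subunit, was at 97.9, 127 and 298 CPM in control and at 150, 188, 118 and 200 CPM in EPS. Psma7 was at 108, 110 and 253.5 CPM in control and at 173, 198, 138 and 242 CPM in EPS. In both, the other controls lay below every EPS library, except that EPS 3 was below control 3 for Psmb3. Without control 4, the log2 fold change moved from 0.05 to 0.52 for Psmb3, from 0.34 to 0.75 for Psma7, from 0.08 to 0.35 for Psma3, from 0.14 to 0.31 for Psma4, and from 0.33 to 0.17 for Psmc4.
All 7 genes with a value below 0 over the 7 libraries were above 0 without control 4, and Psmg2 went to -0.046. Thus 44 of 45 were above 0 (background 62.7%), EPS libraries lay above control for 19 genes (background 16.6%), and the median was 0.35. Psmb3 has pseudogenes of up to 97.1% identity, and how the counting treated reads shared with them is not known. The same holds for Psma3, Psma4, Psma5, Psmb5, Psmc1, Psmd2 and Psmd11, and Psmd1, Psmd13, Psmg3 and Psmc3ip overlap other genes.

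**Figure D5:**
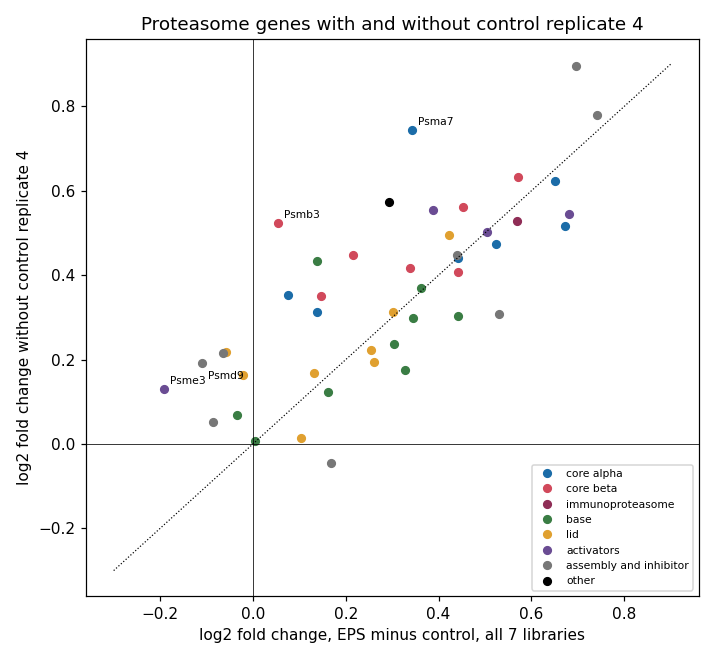
Log2 fold change, EPS minus control, of the 45 proteasome genes with all 7 libraries (x axis) and without control 4 (y axis), coloured by role group, with a dotted line of equality. Psmb3 moves from 0.05 to 0.52 and Psme3 from -0.19 to 0.13, while Psma5 and Psmg4 stay near the line.

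The wider pathway was described by a list of 38 genes for cofactors, transcription, shuttling, ubiquitin and antigen processing, of which 37 were in the table. Of these, 28 had a higher mean with EPS and 9 a lower mean, with a median log2 fold change of 0.21. The background share above 0 was 63.6% and the background median 0.10. At an unadjusted P under 0.05, 5 were higher (background 9.12%) and 0 lower (background 3.53%), and 0 had an adjusted p under 0.05. Shfm1, a small subunit of the lid, was at 61.7, 73.4 and 66.6 CPM in control and at 95.3, 126, 72.7 and 97.8 CPM in EPS, with a limma adjusted p of 0.338. The polyubiquitin gene Ubb was at 106, 117 and 115 CPM in control and at 158, 192, 128 and 160 CPM in EPS, all above control, with a limma adjusted p of 0.279. The core assembly chaperone Pomp had a log2 fold change of 0.34 with overlapping groups. Nfe2l1, the transcription factor known for inducing proteasome genes, was at 777, 418 and 676 CPM in control and at 414, 395, 603 and 382 CPM in EPS. Its groups overlapped, and the log2 fold change was -0.45 (SE 0.27), with a limma adjusted p of 0.580.

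Other multisubunit complexes were set beside the proteasome without a test of the difference, and beside the 63.6% of genes above 0 and the median of 0.10 over the genes with a mean of at least 1 CPM. The COP9 signalosome, whose subunits resemble those of the lid, had a higher mean for 6 of 9 genes and a median log2 fold change of 0.10, and eIF3 for 12 of 13 genes and a median of 0.19. Cytosolic ribosomal proteins had 72 of 73 genes higher and a median of 0.51, above the 0.30 of the proteasome. Their summed levels overlapped, at 20280 to 29610 CPM in control and 23560 to 40500 CPM in EPS. All these values are without the correction for transcript length and GC content, under which the proteasome median was 0.08. Many ribosomal genes have near-identical copies.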

How the data were processed

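The 7 RNA-seq libraries (control, n = 3; EPS, n = 4) were all analysed. The authors selected poly(A) RNA, made directional libraries and, per the submitters' processing notes, mapped reads with STAR 2.5.4b to GRCm38. The counter, annotation and strand setting are not given in the sources used here. The deposited values are CPM, 1 per gene and library. They are not log-transformed, although the paper's methods name log2 and quantile steps. All values (100%) were whole reads within 0.05 reads once divided by the value of 1 read, and those recovered reads served for edgeR 4.0.16, DESeq2 1.42.0 and the read ratios only.

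log2(CPM + 1) of the 19144 genes above 0 in at least 1 library was tested with limma 3.58.1 (R 4.3.3; empirical Bayes with a mean-variance trend, no covariate), with Benjamini-Hochberg adjustment over all genes. Single values were also tested with an exact permutation test over the 35 assignments of libraries. Scripts were tested on simulated data. Values per library are given for the catalytic and inducible subunits and for the 3 members of each role group with the lowest P. The members and lists were chosen with earlier results of these data known. Alternatives were pseudocounts of 0.5 and 0.1, a mean of at least 1 CPM, quantile, TMM and median-of-ratios scaling, robust empirical Bayes, edgeR, DESeq2, a replicate block, each library left out and, added later, a loess correction (span 0.5, 16599 genes). Symbols were matched to GENCODE M21 (22467 of 26607, 84.4%), and near-identical copies (at least 95% over 200 bases) were found with BLAST 2.17.0. Values of some listed genes are not reported here.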

Additional observations from a re-analysis of the deposited data

Results flagged for a closer look

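In 1 of the 45 genes, an EPS library stood apart from the other 3. Psmd1, a scaffold subunit of the base, was at 247.5 CPM in EPS 2 and at 392.2 to 420 CPM in the other EPS libraries. The gap to the nearest library was 0.839 of the group's range, above Dixon's 95% critical value for 4 libraries. Chance alone marks about 1 group in 20, and 45 groups were examined. Control groups of 3 libraries were not examined.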

How the results depend on the processing

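No proteasome gene reached an adjusted p under 0.05 under any of the alternatives, and across them the median log2 fold change was 0.08 to 0.40. The 2 genes at an unadjusted P under 0.01 in limma became 0 under quantile, median-of-ratios and TMM scaling, in edgeR and with the replicate block, and 0 to 6 with 1 library left out. The 13 genes with EPS libraries above control became 8 under median-of-ratios scaling and 7 under TMM, and the 0 genes below control became 1 under the loess correction, which was chosen after seeing the data. The log2 ratio of Psmb8 to Psmb5 went from 1.48 to -0.0105 with CPM + 1, where the added 1 CPM outweighs most Psmb8 levels. Psme3 went from -0.19 to 0.13 without control 4. Of 364 values of 24 named genes, most of them chosen for a low P and 4 of them (Psma3, Psma7, Psmb3 and Psme3) run only without control 4, 363 kept their direction. Over all 45 genes, 8 changed sign without control 4. Libraries with the same number did not deviate together (r of 0.25, -0.45 and 0.07 for numbers 1, 3 and 4), so the numbers were not taken as pairs; with the replicate block, which leaves out EPS 2, the median was 0.29 and 4 genes were higher at an unadjusted P under 0.05, as were 673 of the 12256 genes of at least 1 CPM. Psmb8 and Psmb9 had fewer than 3 reads in some libraries, so depth limits what their ratios can show.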
